A study of Mus musculus with 4 samples.

Results

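The genes described here are the 9 lysosomal and secreted proteases Ctsk, Ctsb, Ctsl, Ctsd, Ctss, Ctsh, Ctsz, Ctsc and Lgmn, and the protease inhibitor gene Cst3. They were chosen by symbol, with earlier results of these data known. They are 10 of the 23377 genes in the count table, and all 10 were found. Messenger RNA was read in cancer-associated fibroblasts (CAFs) of mouse, fibroblasts that live inside a tumour. A pair of libraries (title RES4) carries the phenotype label for resistant tumours and is called resistant tumour CAFs. The other pair (title WTA) carries the label for normal tumours and is called normal tumour CAFs. The series is about tumour lactate in adaptive resistance to therapies that target MET and EGFR, a pair of growth factor receptors. The labels give no strain, drug, dose, sort or age. The design text calls the 2 libraries of a group biological replicates of 1 sample, without saying whether they came from separate animals, tumours or cultures. The p-values cover no more than the spread within these pairs, part of which may be technical, and a trait of a single tumour or culture cannot be told apart from the group.

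Cathepsins are proteases that work mostly in the acid of the lysosome, where they break down proteins brought in from outside or by autophagy. Most are cysteine proteases, cathepsin D is an aspartic protease, and legumain cuts after asparagine and helps to mature several cathepsins. Fibroblasts also release part of their cathepsins, and cathepsin K can cut fibrillar collagen. Cystatin C, the product of Cst3, is a secreted inhibitor of cysteine cathepsins. Many lysosomal genes are targets of the transcription factor TFEB and its relatives, which bind a DNA element built around the letters CACGTG.

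Promoter windows of 300 bases, from 250 before to 50 after a RefSeq start, were at hand for 8 of the 10 genes (RefSeq, build GRCm38.p6), in 9 windows because Lgmn has a pair of starts. Ctsb and Ctsh had no entry. The letters CACGTG, which read the same on both strands, lay in the windows of Ctsd, Ctsl and 1 start of Lgmn. That is 3 of 9 windows, against 7.15% of all 32851 promoter windows. The bases after this Lgmn start were not found in an Lgmn transcript of GENCODE M21, and the other Lgmn window held no match. The longer form TCACGTGA lay in 1 of the 9, at the inner Ctsd match, against 0.974% of all windows. Both Ctsk and Ctsc lacked the letters in their windows, and they are shown beside the 3 windows with a match because their levels differed most between the groups. Capitals mark CACGTG, and each sequence runs 5′ to 3′ on the gene's strand.
Ctsk promoter, chr3:95498960-95499259, plus strand: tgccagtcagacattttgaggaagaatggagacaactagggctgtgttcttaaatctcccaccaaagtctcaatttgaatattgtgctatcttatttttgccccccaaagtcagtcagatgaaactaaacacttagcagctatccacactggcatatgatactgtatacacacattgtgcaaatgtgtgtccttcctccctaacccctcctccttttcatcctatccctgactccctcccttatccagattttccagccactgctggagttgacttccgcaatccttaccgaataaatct
Ctsc promoter, chr7:88277835-88278134, plus strand: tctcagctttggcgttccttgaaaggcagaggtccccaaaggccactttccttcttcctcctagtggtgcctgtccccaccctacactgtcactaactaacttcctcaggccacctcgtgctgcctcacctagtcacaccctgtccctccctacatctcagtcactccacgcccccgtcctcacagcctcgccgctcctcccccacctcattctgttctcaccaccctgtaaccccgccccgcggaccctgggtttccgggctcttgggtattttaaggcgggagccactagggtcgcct
Ctsd promoter, chr7:142387778-142388077, minus strand: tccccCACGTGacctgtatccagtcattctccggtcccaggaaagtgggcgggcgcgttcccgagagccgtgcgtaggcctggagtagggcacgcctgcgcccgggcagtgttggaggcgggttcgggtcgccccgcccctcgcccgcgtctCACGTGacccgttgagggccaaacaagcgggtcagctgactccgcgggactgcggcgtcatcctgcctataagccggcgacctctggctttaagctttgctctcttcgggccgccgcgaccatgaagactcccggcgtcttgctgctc
Ctsl promoter, chr13:64370471-64370770, minus strand: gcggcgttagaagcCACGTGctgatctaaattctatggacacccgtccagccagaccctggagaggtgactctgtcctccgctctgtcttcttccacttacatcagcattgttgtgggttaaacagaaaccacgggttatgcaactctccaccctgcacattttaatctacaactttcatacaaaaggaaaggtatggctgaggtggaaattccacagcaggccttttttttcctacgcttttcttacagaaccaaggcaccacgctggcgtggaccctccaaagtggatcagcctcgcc
Lgmn promoter at the start of a second RefSeq transcript, chr12:102439043-102439342, minus strand: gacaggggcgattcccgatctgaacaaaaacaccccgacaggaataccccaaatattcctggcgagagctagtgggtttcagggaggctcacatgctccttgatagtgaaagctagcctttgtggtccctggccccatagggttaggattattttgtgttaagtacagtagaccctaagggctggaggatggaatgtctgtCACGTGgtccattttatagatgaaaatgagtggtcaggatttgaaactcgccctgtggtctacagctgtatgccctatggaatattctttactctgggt
A match is a string of letters, not a shown binding site, and none of the libraries measured binding.

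The libraries held 2785936 to 2845237 reads in resistant and 3948066 to 5558541 reads in normal tumour CAFs. Log2 levels of the resistant pair correlated across genes at r = 0.936, and those of the normal pair at r = 0.972. The fibroblast label was read against marker genes. Col1a1, a collagen I chain, was abundant in both groups, at 1689 and 1703 CPM in resistant libraries, against 1180 and 965 CPM in normal libraries. Dcn, the gene of the matrix proteoglycan decorin and a fibroblast marker, had 243 and 346 reads in resistant libraries, against 3 and 1 reads in normal libraries. Sox10, a neural crest transcription factor, had 2 and 1 reads in resistant libraries, against 745 and 821 reads in normal libraries. The Schwann cell and neural crest list that holds Sox10 went both ways, with log2 fold changes, resistant over normal, from -9.99 to 5.85. Of the 10 genes, 9 passed the filter on low counts. Ctss did not, with 3 reads in resistant replicate 1 and none in the other 3 libraries. Levels are given in CPM, the usual count unit corrected for library size, here with trimmed-mean (TMM) factors. Fold changes are log2, resistant over normal, ± standard error (SE). The threshold was a Benjamini-Hochberg adjusted p under 0.05 over all genes tested with edgeR's quasi-likelihood test.

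Of the 9 genes tested, 6 were higher in resistant tumour CAFs (Ctsk, Ctsh, Ctsl, Ctsz, Lgmn and Cst3), 1 was lower (Ctsc), and Ctsb and Ctsd did not pass the test. Over all 12001 genes tested, 29.4% passed, 15.5% as higher and 13.9% as lower. The median log2 fold change was 1.02 over the 9 genes and -0.0036 over all genes tested. The genes were chosen with earlier results of these data known, so these contrasts are descriptive only. When scaling used library totals only, the log2 fold change of a typical gene moved by -0.14, and all 7 calls remained. The higher calls of Ctsz and Cst3 were lost without normal replicate 1 or 2, and that of Ctsl without normal replicate 2. Ctsc stayed lower in both fits. These fits also called fewer genes over the whole table, which bears on the list counts given for them below.

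**Figure D1:**
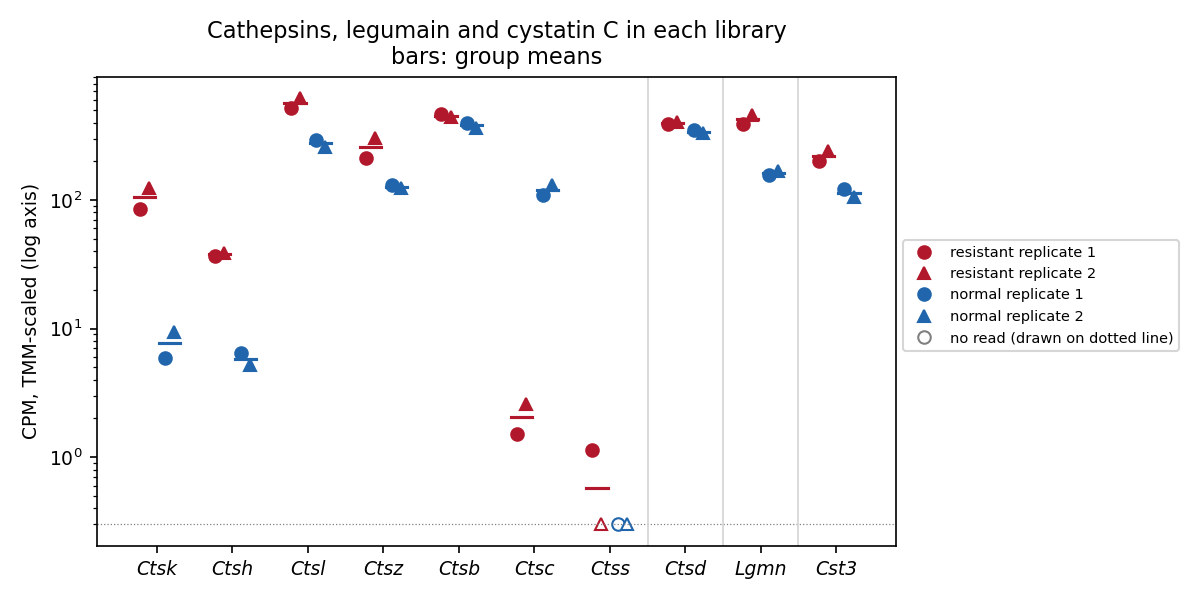
TMM-scaled CPM on a log axis for each of the 10 genes, with 1 point per library and a bar at each group mean; grey lines part the cysteine cathepsins from Ctsd, Lgmn and Cst3. Ctsk lay at 85.6 and 124 CPM in the resistant pair, against 5.95 and 9.43 CPM in the normal pair, and Ctsc showed the reverse order.

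Ctsk, which encodes the collagen-cutting cathepsin K, had 225 and 337 reads (85.6 and 124 CPM) in resistant replicates 1 and 2, and 24 and 56 reads (5.95 and 9.43 CPM) in normal replicates 1 and 2. Both resistant libraries lay far above both normal ones. The mean was 105 ± 26.9 CPM in the resistant pair, against 7.69 ± 2.46 CPM in the normal pair (SD, n = 2 each), a ratio of 13.6. Its log2 fold change was 3.75 ± 0.43 (adjusted p = 5.30e-05), and it stayed between 3.41 and 4.10 over all 14 alternatives, past the threshold in each. Ctsk is also a marker of osteoclasts. In the osteoclast list, 5 of 8 genes had no read in any library, among them Calcr, Oscar and Dcstamp. The list's summed level was 136 and 64.2 CPM in resistant libraries, against 29.7 and 30.0 CPM in normal libraries. Its tested genes Acp5, an acid phosphatase, and Itgb3, an integrin subunit, were both called higher, by 3.17 ± 0.70 and 1.70 ± 0.42 on the log2 scale. Acp5 had only 13 and 13 reads in resistant libraries, against 3 and 2 reads in normal libraries. It thus passed the low-count filter through the resistant pair alone. Neither call held without normal replicate 2, where Acp5 had an adjusted p of 0.143 and Itgb3 one of 0.115. The Itgb3 call was also lost without normal replicate 1 (adjusted p = 0.115), and its log2 fold change was 1.04 without resistant replicate 1. The Acp5 call was lost with DESeq2 (adjusted p = 0.0556). Their part in the Ctsk result was not tested.

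Ctsh encodes cathepsin H, mainly an aminopeptidase. It had 97 and 105 reads (36.9 and 38.5 CPM) in resistant libraries, against 26 and 31 reads (6.44 and 5.22 CPM) in normal libraries. The replicates of each group lay close together and the groups apart, as were those of 64.7% of all genes tested. Ctsh rose, with a log2 fold change of 2.70 ± 0.44 (adjusted p = 0.000565), a ratio of means of 6.47, and passed under all 14 alternatives.

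Ctsl, which encodes the endopeptidase cathepsin L, stood at 514 and 619 CPM in resistant libraries, against 295 and 258 CPM in normal libraries. It was the most abundant of the 10 on the CPM scale in the resistant libraries, and its groups did not overlap; 64.7% of all genes tested had group ranges apart. The log2 fold change was 1.04 ± 0.23 (adjusted p = 0.00469). Without normal replicate 2 it was 0.91 and did not pass (adjusted p = 0.103). The Ctsl exons share 1742 bases with the antisense gene Gm47123 and 395 bases with the processed pseudogene Gm49230 in the GENCODE M21 annotation, and strand use in counting is not given in the sources used here, so such reads cannot be told apart.

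Ctsz encodes cathepsin Z, a carboxypeptidase. Its level was 213 and 302 CPM in resistant libraries, against 131 and 123 CPM in normal libraries. The resistant replicates differed more than the normal ones, but the groups did not overlap, as for 64.7% of all genes tested. Ctsz rose by 1.02 ± 0.27 (log2, adjusted p = 0.0136). The call was lost without normal replicate 1 (1.0, adjusted p = 0.175) and without normal replicate 2 (0.95, adjusted p = 0.248).

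Ctsb, the gene of cathepsin B, had 465 and 441 CPM in resistant libraries, against 398 and 362 CPM in normal libraries. The resistant values were the higher ones, by a small margin. Its log2 fold change of 0.25 ± 0.22 did not pass the test (adjusted p = 0.442), with a 95% interval of -0.23 to 0.74. Ctsb exons share 774 bases with Fdft1, a sterol synthesis gene on the opposite strand, and reads from that stretch cannot be assigned to either gene without strand.

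Ctsc moved the other way. It encodes cathepsin C, also called dipeptidyl peptidase I, which activates serine proteases of immune cell granules. It had 4 and 7 reads (1.52 and 2.57 CPM) in resistant libraries, against 443 and 780 reads (110 and 131 CPM) in normal libraries. The resistant libraries were close to the limit of detection, where 3 counts correspond to 1.14 and 1.10 CPM. The mean was 2.05 ± 0.740 CPM in the resistant pair, against 121 ± 15.2 CPM in the normal pair (SD, n = 2 each), which is 58.9 times as high in normal tumour CAFs. The log2 fold change was -5.85 ± 0.49 (adjusted p = 8.03e-06). Over the 14 alternatives it lay between -6.28 and -5.53, always past the threshold. Ctsc passed the low-count filter through the normal pair alone. In a bulk sample, fewer cells that express a gene and less RNA per cell cannot be told apart.

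Since Ctsc and Ctss are abundant in macrophages, markers of that cell type were read beside them. Of 18 macrophage genes in the table, 7 had no read in any library, including Ptprc, Emr1, C1qa, C1qb and Tyrobp. The summed level of the 18 was 22.8 and 30.5 CPM in resistant libraries, against 32.2 and 51.7 CPM in normal libraries. Laptm5, a lysosomal membrane protein gene of blood cells, held most of the normal sum. It had 2 and 1 reads (0.761 and 0.367 CPM) in resistant libraries, against 92 and 242 reads (22.8 and 40.7 CPM) in normal libraries, and was lower in resistant tumour CAFs (adjusted p = 7.04e-05), whereas Lyz2 rose by 3.07 ± 0.63, a call lost without normal replicate 1 (adjusted p = 0.0543). Laptm5 passed the low-count filter through the normal pair alone. The other tested macrophage genes did not pass the test. Their part in the Ctsc result was not tested.

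Ctss, the gene of cathepsin S, lies next to Ctsk among protein-coding genes on chromosome 3. Ctsk was read in all 4 libraries, whereas Ctss had its only 3 reads in resistant replicate 1. Both groups were thus at or under 3 counts, and no fold change is given. A count of 0 allows up to 3 reads, which is 1.10 CPM in resistant replicate 2 and 0.743 and 0.505 CPM in normal replicates 1 and 2.

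Ctsd encodes cathepsin D, the aspartic member and a common lysosome marker. Its level was 387 and 406 CPM in resistant libraries, against 352 and 329 CPM in normal libraries. As with Ctsb, the resistant values were slightly higher. The log2 fold change of 0.22 ± 0.22 did not pass (adjusted p = 0.515), with a 95% interval of -0.27 to 0.71, and it was -0.090 once each library's trend along reads per exonic base was removed. Ctsd also shares 808 exonic bases with the gene model Gm49369 on its own strand.

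Lgmn encodes legumain, the asparaginyl endopeptidase. It had 1025 and 1247 reads (390.0 and 458 CPM) in resistant libraries, against 636 and 1006 reads (158 and 169 CPM) in normal libraries. The normal replicates were close, and both resistant values were well above them. Lgmn rose, with a log2 fold change of 1.37 ± 0.24 (adjusted p = 0.000927), a ratio of means of 2.59, and the call held in all 14 alternatives.

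Cst3, the inhibitor gene, stood at 201 and 242 CPM in resistant libraries, against 121 and 106 CPM in normal libraries. The groups did not overlap, which held for 64.7% of all genes tested. The log2 fold change was 0.97 ± 0.27 (adjusted p = 0.0169). Leaving out normal replicate 1 gave 1.01 and an adjusted p of 0.212, and leaving out normal replicate 2 gave 0.84 and an adjusted p of 0.370, neither past the threshold.

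**Figure D2:**
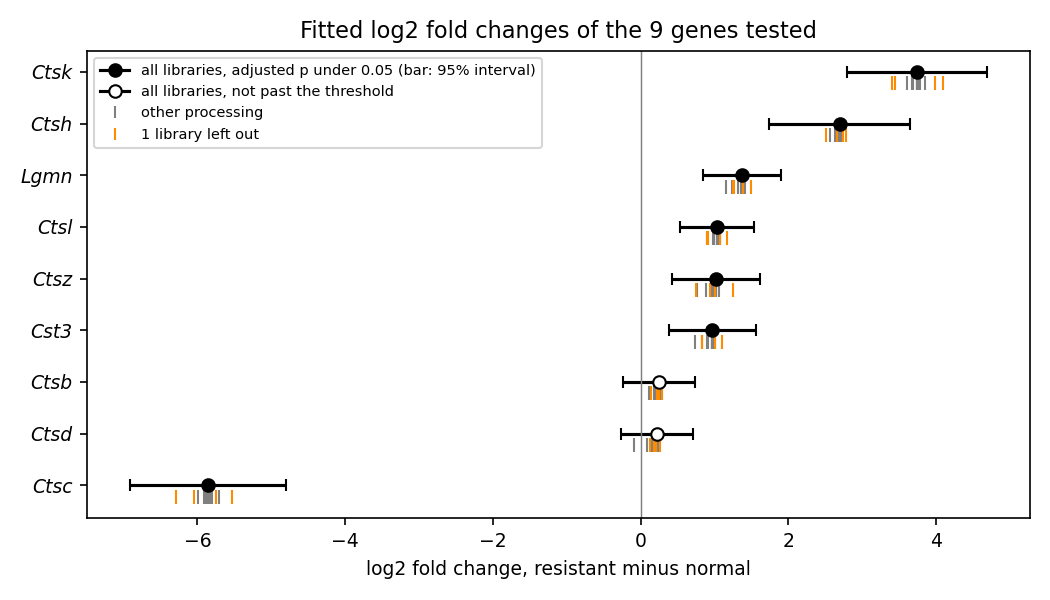
Log2 fold changes, resistant minus normal, of the 9 genes tested, with 95% intervals; ticks under each point are the 10 other processings and the 4 fits with 1 library left out. Ctsk, Ctsh and Lgmn lie right of 0 and Ctsc left of 0 in every fit, and these genes kept their call in each. Ctsl, Ctsz, Cst3 and Ctsb also lie right of 0 in every fit, while the intervals of Ctsb and Ctsd include 0.

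In the authors' deposited table, 3 of the 10 genes were called, Ctsk (log2 fold change 3.72, adjusted p = 4.35e-08) and Ctsh (2.67, adjusted p = 0.0167) as higher and Ctsc (-5.91, adjusted p = 4.38e-15) as lower in resistant tumour CAFs. That table called 8.5% of its 15879 genes, none with a log2 fold change smaller than 2 in size. The log2 fold changes in the authors' deposited table were 1.35 for Lgmn, 1.01 for Ctsl, 1.0 for Ctsz and 0.94 for Cst3, each with an adjusted p of 1. The statistic in the authors' deposited table is 0 for 9194 genes, whose log2 fold changes do not exceed 1.01 in size, so its p-values are not tests against a difference of 0.

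Levels of different genes were compared per kilobase of the principal transcript. In resistant tumour CAFs, Ctsl led with 287 ± 37.4 CPM per kb, followed by Cst3 with 258 ± 34.0 and Lgmn with 222 ± 25.0 CPM per kb (SD, n = 2 each). The ranges of these neighbours overlapped. Ctsd (186 ± 6.18 CPM per kb) and Ctsz (179 ± 43.8) came next and also overlapped, and Ctsb (95.5 ± 3.55), Ctsk (69.2 ± 17.8) and Ctsh (23.3 ± 0.712) followed with ranges apart. Ctsc was at 0.821 ± 0.297 CPM per kb and overlapped with Ctss, which had 0.842 and 0 CPM per kb in replicates 1 and 2. In normal tumour CAFs, Ctsd came first with 160 ± 7.71 CPM per kb, apart from Ctsl (140 ± 13.4) and Cst3 (132 ± 12.5), which overlapped. Ctsz (88.1 ± 3.73), Lgmn (85.5 ± 4.34) and Ctsb (80.2 ± 5.37 CPM per kb) followed, each overlapping its neighbour among the 3. Ctsc stood at 48.3 ± 6.11 CPM per kb, above Ctsk (5.08 ± 1.63) and Ctsh (3.61 ± 0.535), whose ranges overlapped, and Ctss had no read. These orders depend on the transcript length used for each gene.

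The make-up of the protease mRNAs shifted with these levels. Ctsk made up 5.82% and 7.09% of the summed CPM per kb of the 9 proteases in resistant libraries, against 0.630% and 1.04% in normal libraries. The share of Ctsc was 0.0627% and 0.0893% in resistant libraries, against 7.05% and 8.81% in normal libraries. Ctsd, which did not pass the test, held 18.7% and 16.5% in resistant libraries, against 26.5% and 25.9% in normal libraries. Lgmn held 20.9% and 20.7% in the resistant pair, against 13.2% and 14.8% in the normal pair. Summed over the 7 cysteine cathepsins, the level was 588 and 724 CPM per kb in resistant libraries, against 376 and 355 CPM per kb in normal libraries. The ratio of the group means was 1.79. The level of Cst3 divided by that sum was 0.397 and 0.389 in resistant libraries, against 0.374 and 0.347 in normal libraries, with a ratio of means of 1.09. The shares and this ratio were not tested, since an exact permutation test of 2 against 2 libraries cannot go below a two-sided p of 0.333.

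**Figure D3:**
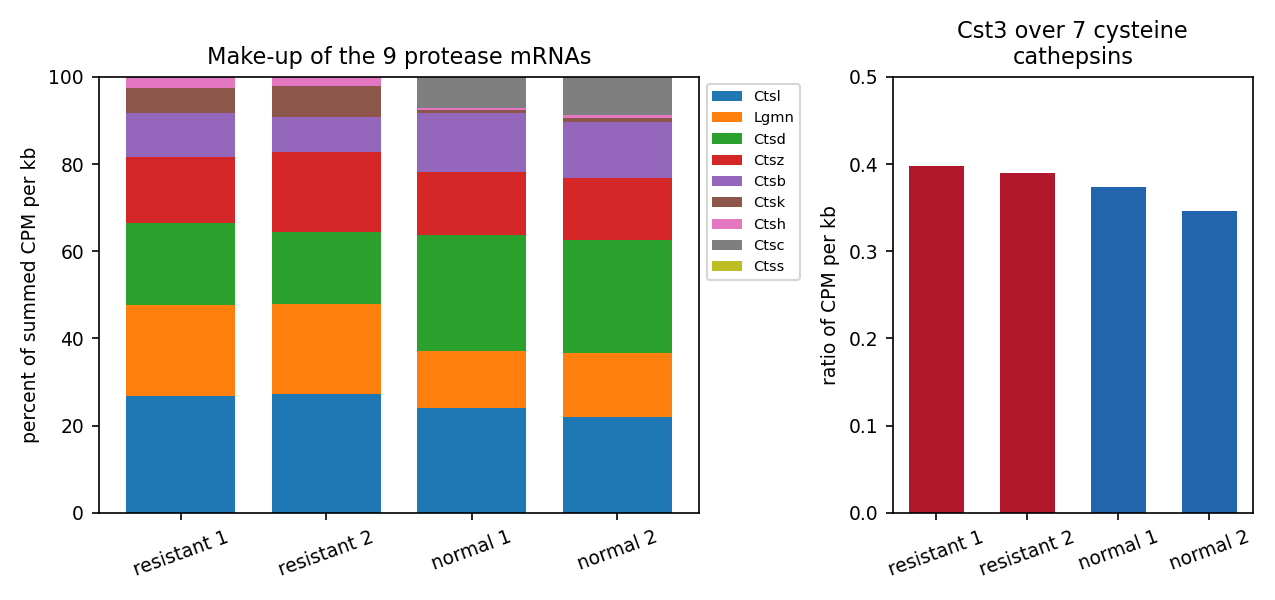
Left, percent of the summed CPM per kb of the 9 proteases that each gene holds in each library; right, Cst3 CPM per kb over the summed CPM per kb of the 7 cysteine cathepsins, 1 bar per library. Ctsk holds 5.82% and 7.09% in the resistant bars, and Ctsc holds 7.05% and 8.81% in the normal bars.

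Of 15 cathepsin genes outside the 10, 4 were tested and all 4 passed, 3 as higher and 1 as lower, against 15.5% higher and 13.9% lower over all genes tested; 7 had no read in any library. Ctsf, the gene of the cysteine protease cathepsin F, stood at 41.1 and 67.5 CPM in resistant libraries, against 5.70 and 9.76 CPM in normal libraries, and rose by 2.79 ± 0.47 on the log2 scale. Ctso rose by 1.92 ± 0.39, a call lost without normal replicate 1 (adjusted p = 0.116). Ctsa, a serine carboxypeptidase that protects beta-galactosidase, rose by 1.04 ± 0.24, a call lost without normal replicate 1 (adjusted p = 0.105) or 2 (adjusted p = 0.146), and its exons share 495 bases with Pltp and 324 with Neurl2. Ctsw, a cathepsin of cytotoxic lymphocytes, had 5 and 3 reads in resistant libraries, against 82 and 145 reads in normal libraries. Ctsw fell by 3.87 ± 0.57 on the log2 scale (adjusted p = 0.000289), the same direction as Ctsc. Like Ctsc, it passed the low-count filter through the normal pair alone. The 14 lymphocyte markers summed to 3.04 and 1.10 CPM in resistant libraries, against 2.48 and 1.01 CPM in normal libraries, 8 of them had no read, Cd3e and Prf1 included, and none passed the filter. Among 21 other cystatin genes, only Cst6 and Cstb passed the filter. Cst6 (cystatin E/M, a secreted inhibitor of legumain and cathepsins) rose by 3.03 ± 0.50 (adjusted p = 0.000600), with 28.2 and 52.9 CPM in resistant libraries, against 5.95 and 4.04 CPM in normal libraries. Cstb, the intracellular stefin B, had 0.063 ± 0.35 and did not pass, a value whose sign changed with the scaling.

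Other parts of the lysosome held calls in both directions. Of 37 other lysosomal hydrolase and cofactor genes, 13 were higher and 1 was lower, 37.8% of the list against 29.4% of all genes tested. There were 6 higher calls without normal replicate 1, 4 without normal replicate 2, and 9 (with 4 lower) with library totals alone as scaling. Gaa, the acid alpha-glucosidase that digests glycogen, rose by 2.26 ± 0.25, the lipase gene Pla2g15 by 2.83 ± 0.38 and Idua, an enzyme of glycosaminoglycan breakdown, by 2.72 ± 0.49. Hyal1, a hyaluronidase, had a log2 fold change of -3.37 ± 0.50. Among 16 lysosomal membrane and lumen transport proteins, 3 were higher and 3 lower, 37.5% of the list. Npc2, which hands over cholesterol, rose by 1.16 ± 0.23, Lamp2 by 0.72 ± 0.22 and Laptm4a by 0.76 ± 0.23, whereas Ostm1, a subunit of a lysosomal chloride transporter, had -1.42 ± 0.32. Laptm4a had 0.39 with offsets along reads per exonic base (adjusted p = 0.147). Lamp2 and Laptm4a each lost their call in 4 of 14 alternatives, with DESeq2 among those of Lamp2 (adjusted p = 0.0523). The higher and lower calls were 1 and 1 without normal replicate 1, and 0 and 0 without normal replicate 2. Of 17 tested subunits of the V-ATPase, the pump that acidifies the lysosome, 2 were higher and 4 lower (0 and 2 without normal replicate 1, 0 and 1 without normal replicate 2), 35.3% of those tested. Atp6v1a had 1.03 ± 0.24, Atp6v1b2 had -0.81 ± 0.25, Atp6v0a2 had -1.82 ± 0.43 and Atp6v0e2 had -1.79 ± 0.38.

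Of 17 genes for sorting and uptake of lysosomal enzymes, 2 were higher and 2 lower (1 and 1 without normal replicate 1 or 2), which is 23.5% of the list against 29.4% of all genes tested. Lrp1, a large endocytic receptor, rose by 2.72 ± 0.36, and Ap3b1, an adaptor subunit, by 0.97 ± 0.25. Sort1, the sorting receptor sortilin, had -3.90 ± 0.68, and Gnptab, which makes the mannose 6-phosphate tag, had -1.24 ± 0.39. The Gnptab value was -1.91 without resistant replicate 1 and -0.79 without resistant replicate 2, and its call was lost without normal replicate 1 (adjusted p = 0.190) or 2 (adjusted p = 0.167). The mannose 6-phosphate receptor genes M6pr (0.43 ± 0.23) and Igf2r (0.77 ± 0.36) did not pass. Igf2r lay at 480 and 197 CPM in resistant libraries, against 230.4 and 168 CPM in normal libraries. It was 1.27 without resistant replicate 2 (adjusted p = 0.0129) and -0.0040 without resistant replicate 1, and it passed with the replicate number as a block (adjusted p = 0.0419) or without a low-count filter (adjusted p = 0.0325). Of 6 tested TFEB family and nutrient-sensing genes, 1 was lower (16.7%), the GTPase gene Rragd (-1.93 ± 0.51), a call lost without resistant replicate 2 (adjusted p = 0.0561). Tfeb had -1.26 ± 0.58, Tfe3 -0.44 ± 0.41 and Mitf 0.15 ± 0.43, none past the test. Tfeb passed with offsets along reads per exonic base (-2.00, adjusted p = 0.0233). Tfe3 was -1.36 without resistant replicate 1 (adjusted p = 0.00481) and 0.13 without resistant replicate 2. CACGTG lay in 7.15% of all promoter windows. It lay in 7 of 15 windows of the sorting list (46.7%), 4 of 17 of the V-ATPase list (23.5%), 3 of 14 of the other cathepsins (21.4%), 3 of 15 of the membrane list (20%), 7 of 37 of the hydrolase list (18.9%) and 0 of 15 of the other cystatins.

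**Figure D4:**
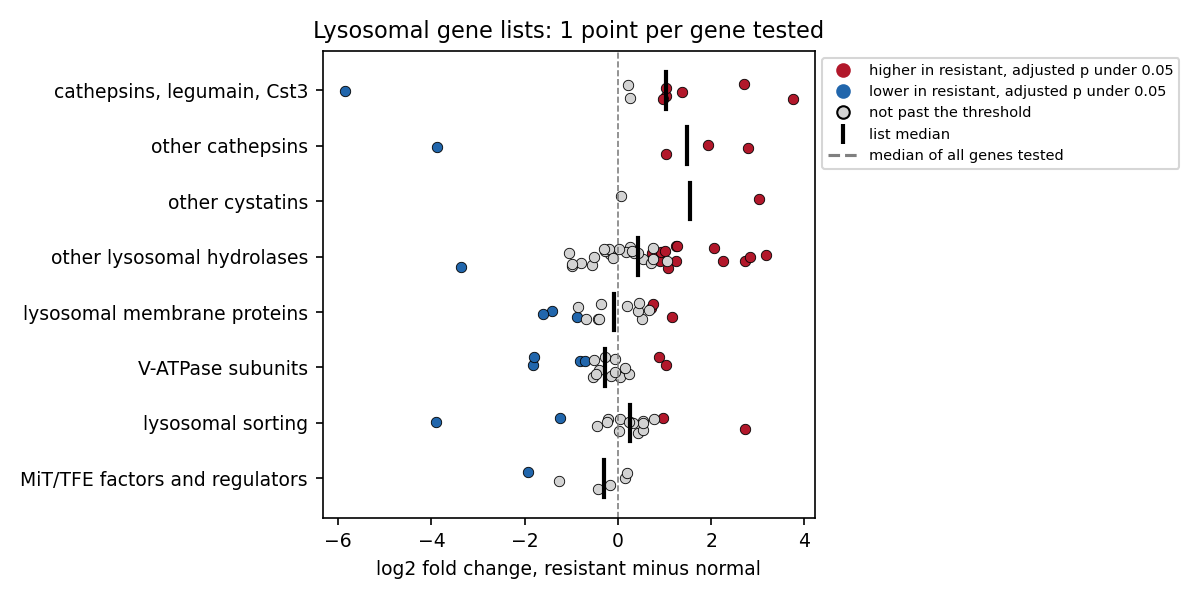
Log2 fold changes, resistant minus normal, with 1 point per gene tested in each lysosomal list, coloured by call; black bars are list medians and the dashed line the median of all genes tested. The 9 cathepsin, legumain and Cst3 points have a median of 1.02, and the V-ATPase list one of -0.27.

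Matrix and antigen genes whose proteins cathepsins can cut or load were read as a list of 10, of which 5 were tested and all 5 were higher (Col1a1, Col1a2, Fn1, Bgn and H2-DMa), against 15.5% of all genes tested. Fn1 (fibronectin) rose by 1.68 ± 0.25, Bgn (biglycan) by 1.71 ± 0.22, Col1a2 by 0.81 ± 0.20 and H2-DMa, a chaperone of antigen loading, by 1.58 ± 0.43. The H2-DMa call was lost without normal replicate 1 (adjusted p = 0.216) or 2 (adjusted p = 0.0902), and that of Col1a2 without resistant replicate 2 (adjusted p = 0.0704). The Col1a1 log2 fold change of 0.66 ± 0.20 passed in 9 of 14 alternatives. With the first resistant library left out the adjusted p was 0.0781, with the second 0.128, and with normal replicate 2 left out 0.177. It was 0.0726 with DESeq2, and offsets along reads per exonic base gave 0.29 with an adjusted p of 0.211. Eln, the gene of elastin, a substrate of cathepsins K and S, had no read in any library.

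Cell type markers differed between the groups in the same libraries. Of 13 tested fibroblast markers, 12 were higher in resistant tumour CAFs, against 15.5% of all genes tested, with Dcn at 7.96 ± 0.62 and Pdgfra at 5.78 ± 0.52. The list's summed level was 10605 and 9430 CPM in resistant libraries, against 4655 and 3782 CPM in normal libraries. Of 9 tested Schwann cell and neural crest markers, 7 were lower and 2 higher, against 13.9% lower and 15.5% higher over all genes tested. Log2 fold changes in this list ran from -9.99 to 5.85, with Ngfr at -7.14 ± 0.34. The list's sums were 259 and 285 CPM in resistant libraries, against 1422 and 1262 CPM in normal libraries. The epithelial list held 6 genes of 10 with no read, Epcam and Cdh1 included, and its only tested gene, Krt19, rose by 3.09 ± 0.44. No endothelial marker passed the filter. The melanocyte list had 2 tested genes, Mitf and Tyr, neither past the test, and the dendritic cell list had 1, Batf3. Batf3 had 1 and 0 reads in resistant libraries, against 25 and 24 reads in normal libraries, and its call as lower was lost without resistant replicate 2 (adjusted p = 0.0539). Dcn passed the low-count filter through its resistant libraries alone, and Sox10 and Batf3 through their normal libraries alone. Other markers with very few reads in a group may have passed in the same way, which bears on the list counts. The part of the marker differences in the cathepsin results was not tested.

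For each of the 9 tested genes, the gene with the most similar pattern over the 4 libraries was sought among the 6386 genes that averaged 50 CPM or more. Likeness was the Euclidean distance between log2 CPM profiles, each centred on its mean. Nearest to Ctsk was Mgst1, a microsomal glutathione transferase gene, at a distance of 0.27, with 175 and 245 CPM in resistant libraries, against 15.4 and 19.0 CPM in normal libraries. Only 11 genes lay within 0.5 of Ctsk. Ctsc had 2 such genes and Tspan15, a tetraspanin gene, was nearest at 0.37. Ctsh lay nearest to Col6a1 (0.11), a collagen VI chain, and Lgmn to Glipr2 (0.071). Patterns like those of the genes with smaller fold changes were common: 211 genes lay within 0.5 of Lgmn, 440 of Ctsz, 482 of Ctsl, 568 of Cst3, 1763 of Ctsb and 1957 of Ctsd. The nearest were Cir1 for Ctsz (0.088), Arl6ip1 for Ctsl (0.064), Itm2b for Cst3 (0.025), Tm9sf2 for Ctsb (0.025) and Cyb5r1 for Ctsd (0.049). With 4 libraries in 2 groups such distances mostly restate the group difference, and they describe these libraries only.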

How the data were processed

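Polyadenylated RNA was sequenced; the labels describe a TruSeq kit and a SMART-seq2 protocol without saying which libraries used which. The read counts per gene symbol were used as deposited. The submitters' processing notes name the build mm9 and the tools TopHat2 2.1.1, HTSeq 0.7.2, Picard 1.62, DESeq2 and bcl2fastq 2, without their roles; the sources used here do not give the strand setting or the gene models. The authors' deposited table gives log2 fold changes and SEs, a score (statistic), p-values and adjusted p-values.

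Counts were tested with edgeR 4.0.16 (R 4.3.3): filterByExpr (minimum count 10), TMM, quasi-likelihood F test, group as the only term, p adjusted over 12001 genes. SEs are the absolute log2 fold change over the square root of F. Totals of 2785936 to 5558541 reads limit precision, and floors and intervals cover counting error or library spread only, since the labels describe no molecular identifiers. Lengths and overlaps came from GENCODE M21 (GRCm38), matched by symbol for 99.4% of tested genes; apart from the promoter windows no coordinates are given, since the builds differ. On simulated counts for this comparison (11781 genes, 66 changed at each size), the test recovered 12.1% of changes of 2-fold, 86.4% at 4-fold and 100% at 8-fold. Of 138 calls, 7 were false. Far fewer genes changed there than the 29.4% called in the data. Its adjusted threshold was therefore stricter, so recovery in the data may differ.

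Genes named outside the 10 were, per list, up to 4 called with the smallest adjusted p, or the 2 of highest mean CPM, plus each nearest profile; others (Col1a1, Eln, Cstb, M6pr, Igf2r, Tfeb, Tfe3, marker genes at 0, promoter and overlap partners) were named after their values were seen. The genes and lists were chosen with earlier results of these data known. Counts of calls and the log2 fold changes of named genes were recomputed with DESeq2 1.42.0, with limma-voom (limma 3.58.1), with upper-quartile factors, relative log expression factors or plain library totals, without a filter, with a filter of 50 reads in 2 libraries, with the replicate number as a block, with offsets removing each library's loess trend (span 0.5) along reads per exonic base or along exonic length, and with each library left out, when the lone library is taken to vary as much as the pair.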

Additional observations from a re-analysis of the deposited data

How the results depend on the processing

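With 1 library left out, 1078 to 2024 genes were higher and 951 to 2323 lower in resistant tumour CAFs, the low ends without normal replicate 2. Of the 10 genes described, 3 to 6 were then called higher and 1 lower. Log2 fold changes over those fits ran from 0.90 to 1.17 for Ctsl, 0.75 to 1.26 for Ctsz and 0.83 to 1.10 for Cst3, the genes that lost a call. In the fits without a normal replicate, only the resistant pair gives a spread within a group. Ctsd turned to -0.090 with offsets along read density (adjusted p = 0.771). Mitf, not called, ran from -0.22 to 0.45 with 1 library left out, with -0.22 without resistant replicate 1 and -0.099 without normal replicate 1. Cstb turned to -0.061 with library totals and -0.31 with offsets along read density, and ran from -0.43 to 0.43 with 1 library left out. Igf2r then ran from -0.0040 to 1.27 and Tfe3 from -1.36 to 0.13. Ctsk, Ctsh, Lgmn and Ctsc kept direction and call in all 14 alternatives.

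Replicate numbers are shared between the groups, but no label says that a number marks a shared source. Deviations of the same-numbered replicates correlated at r = 0.228 across genes. With the replicate number as a block, 2257 genes were higher and 2267 lower, and among the 10 genes 6 and 1. Of 792 further values for 57 other named genes, 732 kept direction and call, 47 lost the call, 5 gained one and 8 changed sign. Ctss cannot be judged at this depth.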
